A study of Mus musculus with 4 samples.

Results

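The nuclear-encoded oxidative phosphorylation (OXPHOS) genes were taken by symbol: every gene of the deposited matrices whose symbol starts with Nduf, Uqcr, Sdha, Sdhb, Sdhc, Sdhd, Cox4, Cox5, Cox6, Cox7, Cox8 or Atp5. Assembly factors (Ndufaf and Sdhaf symbols) and 2 pseudogene symbols were left out. The rule gave 87 of 25209 genes, with 38 in complex I, 4 in complex II, 8 in complex III, 20 in complex IV and 17 in complex V. Ndufa4 and Ndufa4l2 were counted in complex IV, since the Ndufa4 protein is a subunit of cytochrome c oxidase despite its name. The matrices hold 0 genes of the mitochondrial genome, so the subunits encoded there were not analysed here.

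The samples were embryoid bodies (EBs), aggregates in which mouse embryonic stem cells differentiate into cells of all germ layers. LSD1KO EBs were made from V6.5 stem cells in which the promoter and first exon of Kdm1a, the gene for the histone demethylase LSD1, had been removed by CRISPR, and WT EBs from V6.5 cells without that deletion. Both genotypes were grown as hanging drops for 6 days in differentiation medium, dissociated with TrypLE and profiled by droplet 3′ single-cell RNA-seq, with 2 libraries each. The labels do not say whether the LSD1KO libraries came from 1 clone or more, and p-values measure the spread between these 4 libraries. Kdm1a stood at 1.10 and 0.810 CPM (UMI counts scaled to the size of the library by edgeR with TMM factors) in LSD1KO libraries, against 221 and 246 CPM in WT libraries. The 3′ tags lie outside the deleted part, so they report loss of the transcript and not the deletion itself.

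OXPHOS is the chain by which mitochondria turn the oxidation of fuel into ATP. Complexes I and II take electrons from NADH and succinate, complex III passes them to cytochrome c, complex IV hands them to oxygen, and complex V (ATP synthase) uses the proton gradient built on the way to make ATP. Several complex IV subunits exist as paired isoforms, one broadly expressed and another found mainly in heart and skeletal muscle, lung or testis. Pluripotent cells in some states are known for reliance on glycolysis, and heart muscle for a high oxidative capacity.

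A minimum of 500 UMIs and 500 genes per barcode left 5693 and 3045 cells in LSD1KO libraries, against 4393 and 6828 in WT libraries. Median depth was 11402 and 20304 UMIs per cell in LSD1KO libraries, against 11698 and 9211 in WT libraries, and library totals lay between 72285943 and 75406512 UMIs. Pairs of libraries shared 3 to 15 kept barcodes, at most 0.263% of the smaller library. Cells were gated by marker genes, none of which is an OXPHOS gene: a cell entered a gate with at least 3 of its markers detected and 2 more than of any other list. Cells with at least 3 markers of both the pluripotent and the neural list and no such lead formed a mixed gate. The pluripotent gate (Pou5f1, Nanog and 8 other markers) held 1012 and 903 cells in LSD1KO libraries, against 43 and 247 in WT libraries, and the neural gate held 496 and 218 against 62 and 164. The gate for cardiac and lateral mesoderm was empty in both LSD1KO libraries, against 641 and 871 cells in WT libraries. Mesenchyme, endothelial and visceral endoderm gates held 0 to 15 cells per LSD1KO library, against 125 to 381 per WT library. Sums over whole EBs therefore compare different mixtures, in which fewer cells of a type and less RNA per cell cannot be told apart, and genotypes were also compared inside the pluripotent and neural gates.

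Summed over all 87 genes, OXPHOS transcripts made up 2.65% and 2.55% of UMIs in LSD1KO libraries, against 2.23% and 2.47% in WT libraries. The LSD1KO libraries lay above both WT libraries, with a difference of 0.253 percentage points (exact permutation test, two-sided, p = 0.3333, the smallest that 2 against 2 libraries allow). By complex, complexes IV and V carried most of the gap. Complex IV took 0.852% and 0.809% of UMIs in LSD1KO libraries, against 0.671% and 0.757% in WT libraries. Complex V took 0.799% and 0.779% in LSD1KO libraries, against 0.657% and 0.720% in WT libraries. Complex I overlapped between genotypes, at 0.715% and 0.688% in LSD1KO libraries, against 0.660% and 0.727% in WT libraries (p = 1, same exact test). Transcripts for cytosolic ribosomal proteins took 23.9% and 24.6% of UMIs in LSD1KO libraries, against 27.6% and 31.0% in WT libraries, so that the room left for all other genes differed. With ribosomal protein genes taken out of the total (an alternative chosen with the results in view), the OXPHOS share was 3.49% and 3.38% in LSD1KO libraries, against 3.08% and 3.58% in WT libraries, and the genotypes overlapped. Inside gates the genotypes overlapped. The share was 2.70% and 2.58% in LSD1KO pluripotent cells, against 2.66% and 2.74% in WT pluripotent cells, and 2.65% and 2.53% in LSD1KO neural cells, against 2.46% and 2.62% in WT neural cells. In cells of no gate it was lower, at 2.02% and 1.67% in LSD1KO libraries, against 2.16% and 2.43% in WT libraries, where median depth was 1970.5 and 1530 UMIs in LSD1KO cells, against 5326 and 8424.5 UMIs in WT cells. The part of depth in that difference was not tested. Barcodes under 100 UMIs, which hold free RNA, had an OXPHOS share of 2.94% and 3.21% in LSD1KO libraries, against 2.72% and 2.83% in WT libraries.

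**Figure D1:**
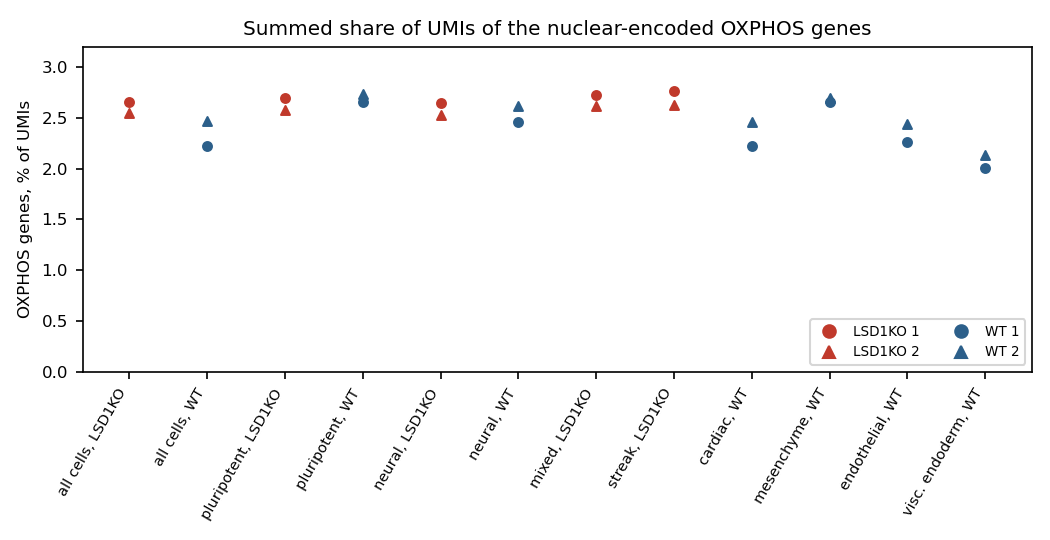
Summed share of UMIs (%, y axis) of the 87 nuclear-encoded OXPHOS genes in all kept cells and in each gate and genotype with at least 30 cells in both libraries. Red points are LSD1KO libraries and blue points WT libraries, with circles for replicate 1 and triangles for replicate 2. Visceral endoderm cells of WT EBs were lowest, at 2.01% and 2.13%.

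Gene by gene in whole EBs, most OXPHOS genes moved little while the transcriptome around them moved a lot. Of 85 genes tested, 3 rose and 11 fell (edgeR quasi-likelihood test, Benjamini-Hochberg adjusted p under 0.05 over all genes), or 16.5%, whereas 44.2% of the 16953 genes tested were called (22.6% higher and 21.6% lower). A log2 fold change within ±0.5 was found for 77 of the 85, and 46.9% of all genes lay beyond that range. The median log2 fold change was 0.01 over the OXPHOS genes and 0.00 over all genes, and the libraries of the genotypes did not overlap for 42 OXPHOS genes, against 77.5% of all genes. Cox8b (1 UMI in all 4 libraries) and Cox8c were too low to test. The 2 WT libraries disagreed over these genes: 82 of the 85 were lower in WT replicate 1 than in WT replicate 2, against 50.1% of all genes tested, while 39 of the 85 were lower in LSD1KO replicate 1 than in LSD1KO replicate 2. The count depended on single libraries. How many of all genes were called without each library was not counted. Without WT replicate 1, 2 rose and 19 fell, without WT replicate 2, 11 rose and 6 fell, and without either LSD1KO library 3 rose and 3 fell. Scaling by library totals in place of TMM factors moved the median of all genes up by 0.13. It gave 14 OXPHOS genes higher and 5 lower of 85, against 4839 higher and 2583 lower of all 16953 genes. Cox7b2, Cox6a2, Ndufb11 and Atp5l were called in the same direction under all 10 alternatives run for whole EBs.

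**Figure D2:**
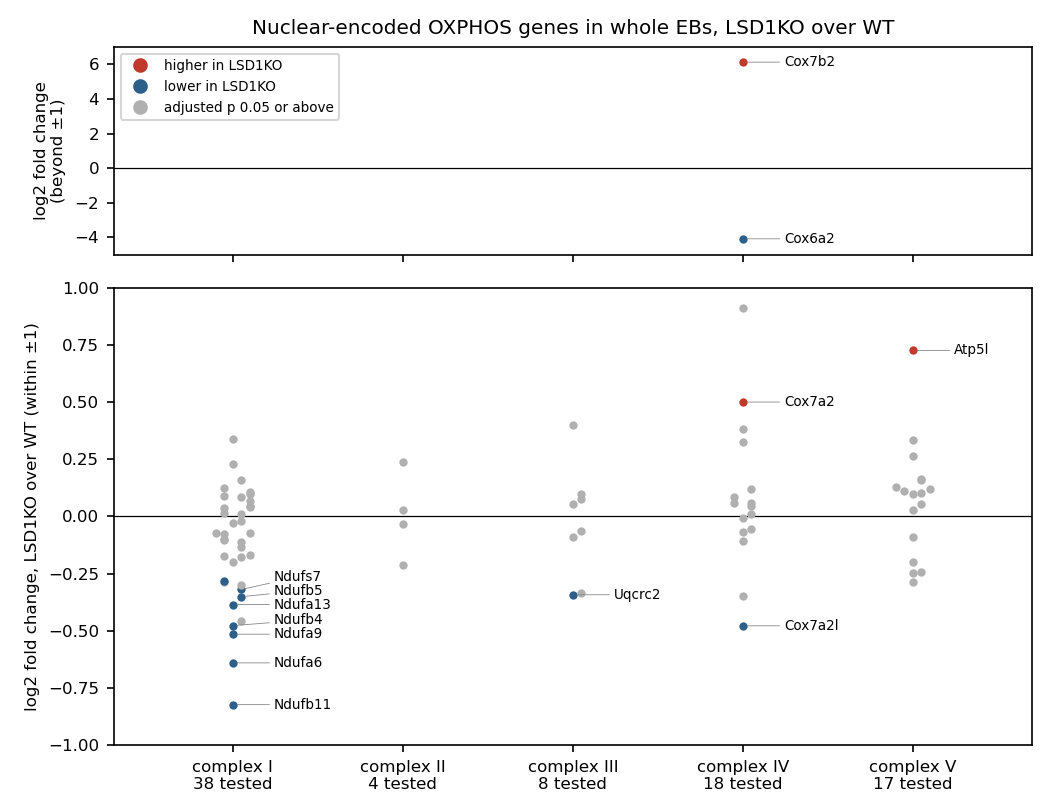
Log2 fold change (y axis, LSD1KO over WT, whole EBs) of the 85 tested OXPHOS genes by complex; each point is 1 gene, red where higher and blue where lower in LSD1KO at an adjusted p under 0.05, grey otherwise. Names are given to called genes beyond ±0.3, and the upper panel holds the 2 genes beyond ±1, Cox7b2 and Cox6a2. The 8 called complex I genes lie below 0 with the TMM scaling plotted, whereas under library totals 3 were higher and 3 lower.

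Complex I, the NADH dehydrogenase, gave 0 genes higher and 8 lower of 38, or 21.1%, close to the 21.6% of all genes called lower. Under library totals the balance was lost, with 3 higher and 3 lower. The largest fall was that of Ndufb11, an accessory subunit of the membrane arm (mm9 chrX:20192452-20194745), with 165 and 150 CPM in LSD1KO libraries, against 265 and 291 CPM in WT libraries (log2 fold change -0.82, SE 0.10, adjusted p = 0.00301). The groups were well apart, and the gap exceeded the spread within either genotype. Ndufa6, an accessory subunit of the matrix arm (mm9 chr15:82180569-82184721), had 160 and 164 CPM in LSD1KO libraries, against 228 and 278 CPM in WT libraries (-0.64, SE 0.12, adjusted p = 0.0101), a call that was lost without LSD1KO replicate 1. Ndufa9, an accessory subunit near the junction of both arms, had 73.3 and 69.8 CPM in LSD1KO libraries, against 100 and 104 CPM in WT libraries (-0.52, SE 0.08, adjusted p = 0.00620), a call lost without LSD1KO replicate 2. The accessory subunits Ndufb4, Ndufa13 and Ndufb5 and the core subunit Ndufs7, close to the site where ubiquinone is reduced, had log2 fold changes between -0.48 and -0.32. These 4 missed the threshold under scaling by library totals, and none of them was called when either LSD1KO library was left out. The level of Ndufs5 cannot be read, since the gene had 0.636 to 0.879 CPM in the 4 libraries while the pseudogene symbol Ndufs5-ps had 17.7 to 19.7 CPM, and reads may have been split between them.

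Complexes II and III gave 1 call together. Complex II, succinate dehydrogenase, gave 0 calls among its 4 genes, with log2 fold changes between -0.21 and 0.24, although Sdhd, a membrane anchor subunit, was called higher under library totals (0.37, adjusted p = 0.0160, edgeR). In complex III only Uqcrc2, a core protein of the matrix side, was called of 8 genes, with 112 and 108 CPM in LSD1KO libraries, against 132 and 147 CPM in WT libraries (-0.34, SE 0.09, adjusted p = 0.0317). That call was lost under library totals and without WT replicate 2 or either LSD1KO library. Under library totals the 1 call in complex III was instead a rise, that of Uqcr10, a small accessory subunit (0.53, adjusted p = 0.0152).

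Complex IV, cytochrome c oxidase, held the 2 largest fold changes among the OXPHOS genes tested by edgeR, both of tissue isoforms. Cox7b2, an isoform of subunit VIIb known from testis (mm9 chr5:71834063-71939444), had 173 and 220 UMIs in LSD1KO libraries, against 3 and 2 UMIs in WT libraries. Pooled per genotype, this was a ratio of 79.8 (exact 95% interval 33.9 to 247, counting error only) and an adjusted p of 0.000692 (edgeR). Cells with a UMI made up 2.71% and 5.12% of LSD1KO cells, against 0.0683% and 0.0293% of WT cells, and no cell held more than 13 UMIs. Free RNA of barcodes under 100 UMIs held Cox7b2 at 0.975 and 3.98 CPM in LSD1KO libraries, against 0.413 and 0 CPM in WT libraries. These levels rest on few UMIs of the gene, as free RNA held 2051094 to 4060314 UMIs per library. Whether the level in free RNA differed from that in cells was not tested. The part of free RNA in these shares of cells was not tested. The transcript was thus rare in LSD1KO EBs too, at 2.45 and 3.36 CPM, and the broadly expressed Cox7b kept 99.5% and 99.3% of the UMIs of this pair in LSD1KO libraries. Cox6a2, the heart and skeletal muscle isoform of subunit VIa (mm9 chr7:135348950-135349880), went the other way, with 37 and 15 UMIs in LSD1KO libraries, against 363 and 446 UMIs in WT libraries (0.523 and 0.229 CPM against 5.83 and 6.9997 CPM, log2 fold change -4.08, SE 0.39, adjusted p = 0.00147). The 10 cardiac and lateral mesoderm markers moved with it, summing to 16.5 and 14.1 CPM in LSD1KO libraries, against 407 and 330 CPM in WT libraries, with 0 markers undetected in any library. The part of that difference in cell makeup in the Cox6a2 result was not tested.

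The third family to shift in whole EBs was subunit VIIa. Cox7a2, its broadly expressed isoform, had 806 and 722 CPM in LSD1KO libraries, against 474 and 606 CPM in WT libraries (0.50, SE 0.15, adjusted p = 0.0435). Cox7a2l, a related protein that joins complexes III and IV into supercomplexes, had 201 and 197 CPM in LSD1KO libraries, against 262 and 292 CPM in WT libraries (-0.48, SE 0.10, adjusted p = 0.0129). Of the UMIs of Cox7a2, Cox7a2l and Cox7a1 together, Cox7a2l took 19.8% and 21.2% in LSD1KO libraries, against 35.2% and 32.2% in WT libraries (exact permutation p = 0.3333, the smallest possible). The single-gene calls of Cox7a2 and Cox7a2l were lost when either LSD1KO library was left out, and that of Cox7a2 also without WT replicate 1. Inside the pluripotent gate neither gene was called (edgeR). The log2 fold change there was 0.18 for Cox7a2 (adjusted p = 0.402) and -0.13 for Cox7a2l (adjusted p = 0.391). Inside the neural gate Cox7a2l was called lower (-0.42), and Cox7a2 was not called (0.26, adjusted p = 0.224). The other complex IV isoforms did not pass the test in whole EBs. Ndufa4l2, a paralogue of Ndufa4 induced by hypoxia, had 2.35 and 0.718 CPM in LSD1KO libraries, against 0.514 and 1.11 CPM in WT libraries, which overlapped. Cox8c, a testis isoform, had 9 and 24 UMIs in LSD1KO libraries, against 0 and 1 UMI in WT libraries (pooled ratio 33.5, exact interval 5.61 to 1362), and was not tested by edgeR.

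In complex V, 1 of 17 genes was called, and under library totals 5 were called, all higher. Under that scaling 4839 of all 16953 genes were higher. Atp5l, subunit g of the membrane part, which takes part in pairing ATP synthases into dimers (mm9 chr9:44721333-44728825), had 539 and 502 CPM in LSD1KO libraries, against 292 and 337 CPM in WT libraries (0.73, SE 0.12, adjusted p = 0.00597). The proton-carrying c subunit is encoded by 3 genes with different targeting peptides, and their balance differed in whole EBs. Atp5g1 took 30.9% and 31.2% of the UMIs of the 3 genes in LSD1KO libraries, against 24.01% and 25.4% in WT libraries. Atp5g2 took 42.8% and 45.7% in LSD1KO libraries, against 52.2% and 53.0% in WT libraries (exact permutation p = 0.3333 for each of these shares). Atp5g3 took 26.4% and 23.0% in LSD1KO libraries, against 23.8% and 21.6% in WT libraries, which overlapped. None of the 3 genes passed the test alone, with adjusted p-values of 0.114 for Atp5g1, 0.220 for Atp5g2 and 0.348 for Atp5g3 (edgeR). Under library totals Atp5g1 passed (log2 fold change 0.47, adjusted p = 0.0273). Inside the pluripotent gate, with TMM factors, log2 fold changes were 0.05 for Atp5g1, -0.28 for Atp5g2 and 0.33 for Atp5g3, and none was called. Inside the neural gate they were 0.15, -0.39 and 0.15, and only Atp5g2 was called.

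Inside the pluripotent gate, 81 OXPHOS genes were tested, of which 3 rose and 12 fell, or 18.5%, against 23.5% of all 13670 genes tested (12.6% higher and 10.9% lower). Of the 81, 73 lay within ±0.5, and 40.9% of all genes lay beyond. The libraries of the genotypes did not overlap for 56 of the 81, against 64.1% of all genes. The median log2 fold change was -0.06, against 0.02 over all genes. Ndufb11 fell again, with 163 and 144 CPM in LSD1KO libraries, against 243 and 230 CPM in WT libraries (-0.62, adjusted p = 0.00491, edgeR). Ndufa6 had 168 and 169 CPM in LSD1KO libraries, against 266 and 277 CPM in WT libraries (-0.69, adjusted p = 0.00175). Ndufb5 had 234 and 219 CPM in LSD1KO libraries, against 320 and 322 CPM in WT libraries (-0.51, adjusted p = 0.00761). These 3 are accessory subunits whose libraries did not overlap. Ndufa6 was called under all 11 alternatives, Ndufb11 was lost without LSD1KO replicate 2, and Ndufb5 without either LSD1KO library. Ndufb4, Ndufs7, Ndufb9, Ndufa11, the complex III core protein Uqcrc1, the ATP synthase γ subunit Atp5c1 and the broadly expressed complex IV subunit Cox4i1 also fell, with log2 fold changes between -0.61 and -0.36, and Atp5l rose by 0.46. These 8 calls were lost when either LSD1KO library was left out. How many of all genes were called with a library left out of this gate was not counted. Without LSD1KO replicate 1 the gate gave 4 calls, and without LSD1KO replicate 2 it gave 3. Without WT replicate 1, which has 43 cells in this gate, 3 rose and 19 fell, and without WT replicate 2, 8 rose and 5 fell.

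Inside the neural gate, 78 OXPHOS genes were tested, of which 0 rose and 6 fell, or 7.69%, against 14.2% of all 12315 genes tested (8.03% higher and 6.16% lower). The genotypes did not overlap for 42 of the 78, against 59.5% of all genes, and 75 lay within ±0.5, with 33.9% of all genes beyond. The 6 were Ndufa6 (log2 fold change -0.70), Ndufb11 (-0.65), Ndufb5 (-0.41), Cox7a2l (-0.42), Atp5g2 (-0.39) and Cox6b2 (-1.21). Ndufa6 had 149 and 162 CPM in LSD1KO libraries, against 255 and 250 CPM in WT libraries, and Ndufb11 had 175 and 151 CPM against 259 and 254 CPM. The gates differ in purity between genotypes: in the neural gate the 10 pluripotent markers summed to 458 and 551 CPM in LSD1KO cells, against 64.1 and 46.0 CPM in WT cells, and in the pluripotent gate the 10 neural markers summed to 435 and 394 CPM in LSD1KO cells, against 214 and 187 CPM in WT cells. The markers that define each gate differed too. In the pluripotent gate the 10 pluripotent markers summed to 1961 and 2333 CPM in LSD1KO cells, against 2435 and 4209 CPM in WT cells. In the neural gate the 10 neural markers summed to 1109 and 792 CPM in LSD1KO cells, against 503 and 551 CPM in WT cells. Also in the neural gate, the primitive streak markers summed to 355 and 77.7 CPM in LSD1KO cells, against 65.4 and 53.7 CPM in WT cells. Mesenchyme and endothelial markers were higher there in LSD1KO cells too. Visceral endoderm markers went the other way, at 3.67 and 3.55 CPM in LSD1KO cells, against 46.4 and 54.6 CPM in WT cells. Cardiac and lateral mesoderm markers were 18.2 and 14.1 CPM against 18.3 and 26.2 CPM. The part of these marker differences in the results of both gates was not tested. Under library totals 1 OXPHOS gene was higher and 3 were lower in the neural gate, against 1231 higher and 629 lower of all 12315 genes. The calls of Ndufb5, Cox7a2l and Atp5g2 were lost under that scaling. Ndufb5 and Cox7a2l were called under only 4 of 11 alternatives. For the alternatives that follow, the share of all genes called was not counted. Without WT replicate 1 the neural gate gave 1 call, and without WT replicate 2 it gave 0, so that the calls of Ndufa6 and Ndufb11 rested on both WT libraries. At least 4 markers per cell left 3 genes lower, and markers of exactly 1 list gave 12 lower.

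Whether the genotype effect differed between both gates was tested directly. Of 80 OXPHOS genes in this test 0 were called (edgeR interaction term with library as a block, 629 of 13175 genes called), and the lowest adjusted p was 0.0872 for Cox7a1. An unadjusted p under 0.05 was found for 10 of the 80, and the share of all genes at that cut was not counted.

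**Figure D3:**
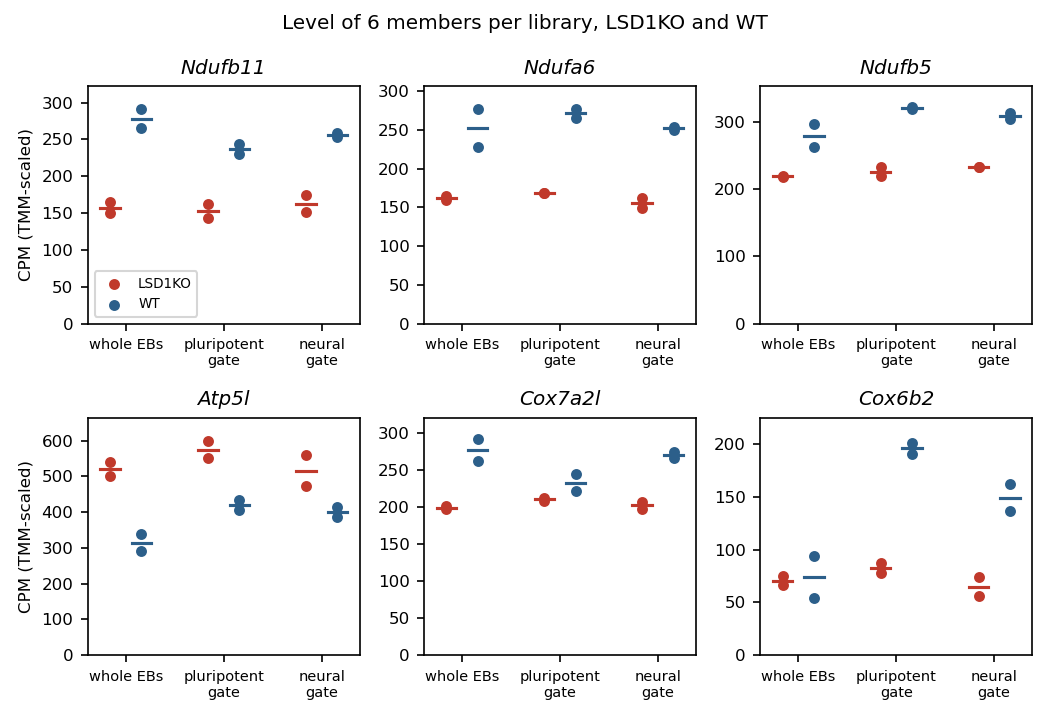
TMM-scaled CPM (y axis) of 6 OXPHOS genes in whole EBs, the pluripotent gate and the neural gate. Each point is a library, red for LSD1KO and blue for WT, and each line the mean of 2 libraries. Cox6b2 overlaps between genotypes in whole EBs and is lower in LSD1KO in both gates.

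Cox6b2 was called in both gates and not in whole EBs. This isoform of subunit VIb, known from testis and sperm (mm9 chr7:4703396-4704696), had 74.8 and 66.6 CPM in whole LSD1KO EBs, against 54.3 and 94.0 CPM in whole WT EBs (-0.07, SE 0.25, adjusted p = 0.841). In the pluripotent gate it had 87.5 and 77.8 CPM in LSD1KO libraries, against 191 and 201 CPM in WT libraries (-1.26, SE 0.11, adjusted p = 0.000183). In the neural gate it had 73.8 and 55.7 CPM in LSD1KO libraries, against 136 and 162 CPM in WT libraries (-1.21, SE 0.17, adjusted p = 0.00339). The genotypes overlapped in whole EBs and were apart in both gates. The call in the pluripotent gate held under all 11 alternatives, and that in the neural gate under 10 of 11, being lost without WT replicate 2. Without scaling factors, the level in LSD1KO gates lay between 50.3 CPM in the primitive streak gate and 88.0 CPM in the pluripotent gate, whereas WT gates ran from 20.5 CPM in visceral endoderm to 196 CPM in the pluripotent gate.

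Cox7a1, the heart and skeletal muscle isoform of subunit VIIa, fell in the pluripotent gate, with 8.79 and 10.3 CPM in LSD1KO libraries, against 14.8 and 30.4 CPM in WT libraries (-1.43, SE 0.27, adjusted p = 0.00604). The WT libraries were far apart, and leaving out WT replicate 2 or LSD1KO replicate 1 ended the call. Cox4i2, the lung isoform of subunit IV, had 20 and 37 UMIs in LSD1KO libraries of that gate, against 0 and 0 UMIs in WT libraries, where the gate holds few cells. Cox4i2 passed the filter on low genes through the LSD1KO libraries alone, so its call rests on the group where it is high. It was tested under only 8 of the 11 alternatives. Against a floor of 3 UMIs over the pooled WT cells, Cox4i2 was at least 1.92-fold higher, and its call (adjusted p = 0.0398, edgeR) was lost without either WT library and under DESeq2. Cox7b2 in the same gate had 3.96 and 6.06 CPM in LSD1KO libraries, against 0 and 0.676 CPM in WT libraries, a pooled UMI ratio of 9.98 (exact interval 2.73 to 83.0), and was lost under DESeq2 and without LSD1KO replicate 2 or WT replicate 2.

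Promoter windows are shown for some of the genes that fell or rose in whole EBs and in a gate (Ndufb11, Ndufa6, Atp5l). Windows of Cox6b2 beside its broadly expressed partner Cox6b1, and of Cox7b2 without its partner, are also shown. Each runs 5′ to 3′ on the gene's strand, with 250 bases before and 50 after the RefSeq start (GRCm38.p6). Capitals mark matches, on either strand, to the motifs GCATGCGC (NRF1), CCGGAAG (ETS, GABPA), AANATGGCG (YY1), TCAAGGTCA (ESRRA) and CACGTG (E-box), which do not overlap one another in these windows. A match is a description of letters and not a binding site.
Ndufb11, chrX:20617570-20617869, minus strand: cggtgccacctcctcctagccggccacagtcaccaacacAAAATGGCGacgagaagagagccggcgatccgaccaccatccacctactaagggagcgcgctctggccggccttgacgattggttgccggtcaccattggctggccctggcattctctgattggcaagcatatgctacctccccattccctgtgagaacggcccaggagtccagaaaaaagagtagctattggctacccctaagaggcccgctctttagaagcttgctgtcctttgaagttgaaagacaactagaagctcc
Ndufa6, chr15:82354242-82354541, minus strand: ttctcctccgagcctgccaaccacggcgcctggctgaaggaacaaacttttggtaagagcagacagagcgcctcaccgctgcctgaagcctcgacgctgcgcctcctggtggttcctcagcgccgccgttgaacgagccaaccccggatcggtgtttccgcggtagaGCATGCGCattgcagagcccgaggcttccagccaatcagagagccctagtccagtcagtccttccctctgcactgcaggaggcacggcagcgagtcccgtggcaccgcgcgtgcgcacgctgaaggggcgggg
Atp5l, chr9:44920693-44920992, minus strand: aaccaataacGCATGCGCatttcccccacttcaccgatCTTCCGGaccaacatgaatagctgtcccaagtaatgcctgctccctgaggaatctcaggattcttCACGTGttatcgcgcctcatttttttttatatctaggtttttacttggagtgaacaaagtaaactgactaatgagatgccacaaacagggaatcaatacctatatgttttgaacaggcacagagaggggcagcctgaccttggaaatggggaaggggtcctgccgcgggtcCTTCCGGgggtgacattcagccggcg
Cox6b1, chr7:30626065-30626364, minus strand: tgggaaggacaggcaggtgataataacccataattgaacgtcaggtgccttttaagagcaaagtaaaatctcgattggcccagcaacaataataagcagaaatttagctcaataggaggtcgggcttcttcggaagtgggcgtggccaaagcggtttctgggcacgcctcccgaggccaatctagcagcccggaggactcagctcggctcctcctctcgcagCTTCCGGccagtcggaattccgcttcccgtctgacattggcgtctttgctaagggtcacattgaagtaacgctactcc
Cox6b2, chr7:4753045-4753344, minus strand: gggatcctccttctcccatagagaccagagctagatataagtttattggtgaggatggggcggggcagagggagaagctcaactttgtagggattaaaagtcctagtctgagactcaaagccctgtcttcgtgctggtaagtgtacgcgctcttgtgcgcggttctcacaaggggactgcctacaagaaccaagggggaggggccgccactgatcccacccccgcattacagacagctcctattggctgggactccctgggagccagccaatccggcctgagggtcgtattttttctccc
Cox7b2, chr5:71548156-71548455, minus strand: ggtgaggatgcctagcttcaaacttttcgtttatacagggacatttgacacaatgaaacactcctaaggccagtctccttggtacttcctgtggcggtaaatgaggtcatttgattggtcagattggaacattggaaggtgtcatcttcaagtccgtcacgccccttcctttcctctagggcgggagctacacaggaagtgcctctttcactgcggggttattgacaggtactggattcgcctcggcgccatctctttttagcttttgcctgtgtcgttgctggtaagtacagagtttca
Atp5l held 4 matches, Ndufb11, Ndufa6 and Cox6b1 held 1 each, and Cox6b2 and Cox7b2 held 0. Ndufb5, Ndufb4, Ndufs7 and Cox7a2l also fell in whole EBs and in a gate, and their windows are not shown. Of these, Ndufs7 held 1 match and the others held 0. Cox7b, the broadly expressed partner of Cox7b2, held 0 matches and 5 CpG pairs in a window not shown. CpG pairs numbered 14 in Ndufb11, 27 in Ndufa6, 12 in Atp5l, 17 in Cox6b1, 10 in Cox6b2 and 10 in Cox7b2. RefSeq windows were matched for 69 of the 87 genes, with 74 windows in all. Those without a window included Uqcrc2, Uqcrq, Uqcrb, Cox6a2, Cox6c, Cox4i1, Cox4i2, Cox8c, Ndufb9, Ndufb4c, Ndufs1, Ndufa2, Ndufa11b, Ndufa4l2, Atp5a1, Atp5mpl and Sdhc. The 74 matched windows had a median of 19 CpG pairs, against 7 over all 32851 windows. The ETS motif stood in 23.0% of OXPHOS windows, against 8.86% of all windows, the NRF1 motif in 13.5% against 2.71%, and the YY1 motif in 13.5% against 2.38%. The ESRRA motif stood in 2.70% against 0.423%, and the E-box in 9.46% against 7.15%.

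Between cell types of one genotype, OXPHOS genes were compared by setting each gate against the mean of the other gates with library as a block, a comparison chosen once the data were known. In WT EBs the summed share was lowest in visceral endoderm, the extraembryonic epithelium that feeds the early embryo, at 2.01% and 2.13% of UMIs, and lay at 2.22% and 2.46% in cardiac and lateral mesoderm and at 2.27% and 2.44% in endothelial cells, which overlapped each other. Neural cells had 2.46% and 2.62%, and mesenchyme (2.66% and 2.70%) and pluripotent cells (2.66% and 2.74%) were highest among gates with at least 30 cells in both WT libraries and did not differ beyond their spread. The mixed gate of WT replicate 2, with 41 cells, stood at 2.89%. In visceral endoderm 3 of 79 OXPHOS genes were higher and 36 lower (edgeR, adjusted p under 0.05), against 20.1% and 16.8% of all 12306 genes tested. The median log2 ratio was -0.19, against -0.01 over all genes, and under library totals, which moved the median of all genes to -0.12, 1 was higher and 55 were lower. The lower genes comprised 15 of 35 in complex I, 2 of 4 in complex II, 3 of 8 in complex III, 8 of 15 in complex IV and 8 of 17 in complex V. Ndufv1, the flavin-bearing subunit of complex I that oxidises NADH, had 39.5 and 50.2 CPM in visceral endoderm, against 61.8 to 95.6 CPM in the other 5 WT gates (log2 ratio -0.72, adjusted p = 0.000255). Its libraries lay below those of every other WT gate. Cox7a1 was among the 3 higher genes, with 14.7 and 16.9 CPM in visceral endoderm.

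**Figure D4:**
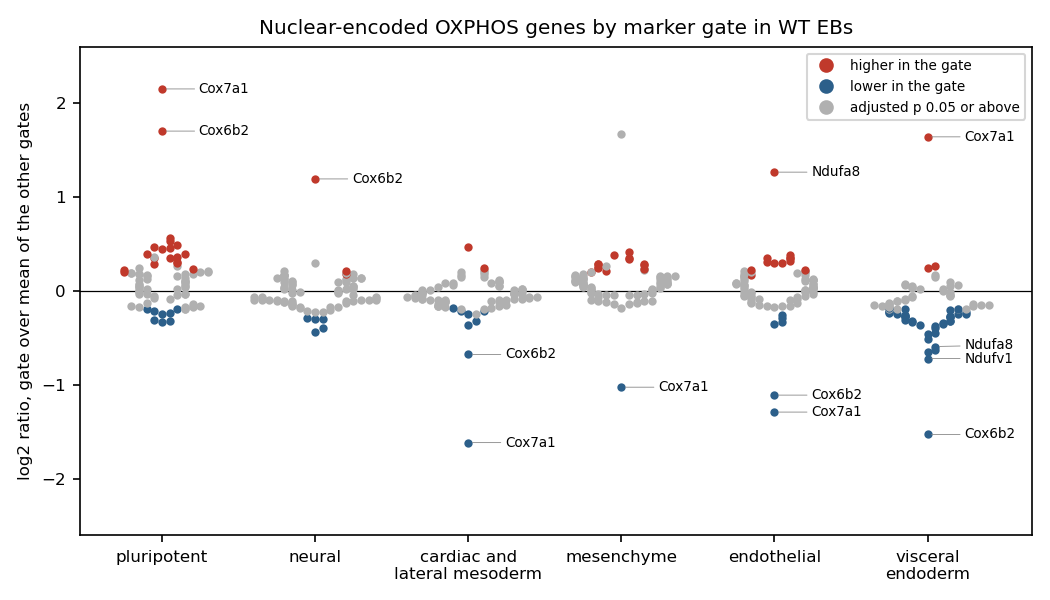
Log2 ratio (y axis) of each OXPHOS gene in a marker gate of WT EBs over the mean of the other 5 gates. Each point is 1 of 79 genes, red where higher and blue where lower in the gate at an adjusted p under 0.05, grey otherwise; Cox6a2 lies outside the axis in 4 gates and is not drawn there. In visceral endoderm 36 genes are lower and 3 higher.

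WT pluripotent cells had 19 OXPHOS genes higher and 8 lower of 79 (18.1% and 16.6% of all genes), led by Cox7a1 (log2 ratio 2.15) and Cox6b2 (1.70), with Cox5a, Cox7c and Atp5g1 between 0.49 and 0.57. Under library totals 31 were higher and 4 lower. WT mesenchyme had 13 higher and 1 lower (10.5% and 8.37% of all genes; 29 and 1 under library totals), endothelial cells 13 and 6 (17.4% and 12.3%, 29.7% together), neural cells 3 and 5 (8.94% and 5.83%), and cardiac and lateral mesoderm 3 and 8 (12.8% and 11.1%). Scaling by library totals turned the balance for endothelial cells to 7 higher and 14 lower and for neural cells to 11 higher and 2 lower. It moved the median of all genes to 0.04 in pluripotent cells, 0.08 in mesenchyme and neural cells and -0.12 in endothelial cells. The share of all genes called under library totals was not counted in any comparison of gates within a genotype.

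In WT cardiac and lateral mesoderm the muscle isoforms of complex IV went opposite ways. Cox6a2 had 24.7 and 34.5 CPM in this gate, 3.05 and 10.7 CPM in endothelial cells, 2.01 and 2.69 CPM in mesenchyme, and 0 UMIs in both libraries in the pluripotent and visceral endoderm gates. It was seen in 11.4% and 16.1% of cardiac and lateral mesoderm cells (median depth 14431 and 9247 UMIs), and in 0 of 193 and 0 of 136 visceral endoderm cells (21605 and 11910.5 UMIs), in which free RNA would also give UMIs. Free RNA of the WT libraries held Cox6a2 at 8.26 and 7.39 CPM, below the cardiac and lateral mesoderm level in each library, but above both mesenchyme levels and the lower endothelial one. The part of free RNA in the mesenchyme and endothelial levels was not tested. Cox7a1, also a muscle isoform, was low there, at 2.69 and 2.34 CPM, against 15.2 and 29.5 CPM in pluripotent cells (log2 ratio against the other gates -1.62, adjusted p = 0.000305). In endothelial cells Ndufa8, an accessory subunit of complex I, stood out with 281 and 188 CPM, against 74.5 to 130 CPM in the other 5 WT gates (log2 ratio 1.27, adjusted p = 5.74e-07).

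**Figure D5:**
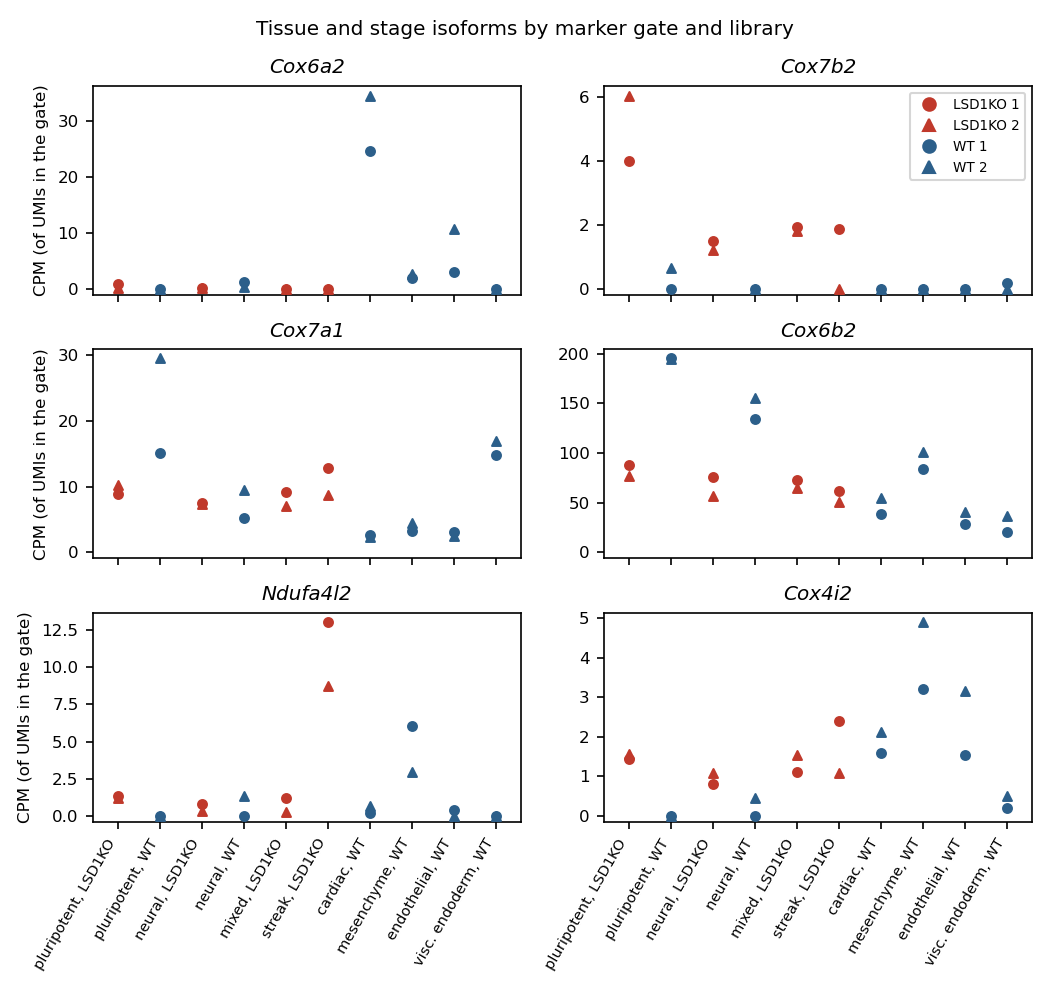
CPM of the UMIs in a gate (y axis, each panel on its own scale) of 6 tissue or stage isoforms, by marker gate and genotype. Red points are LSD1KO libraries and blue points WT libraries, circles replicate 1 and triangles replicate 2. Cox6a2 is highest in WT cardiac and lateral mesoderm, Cox7b2, among the gates, in LSD1KO pluripotent cells and Ndufa4l2 in LSD1KO primitive streak cells.

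In LSD1KO EBs 4 gates were compared in the same way. The neural gate had 0 OXPHOS genes higher and 7 lower of 83 (6.42% and 3.64% of all 14464 genes, 10.1% together), the primitive streak gate 6 and 7 (7.86% and 7.96%), the mixed pluripotent and neural gate 0 and 0 (0.816% and 0.463%, 1.28% together), and the pluripotent gate 16 and 3 (15.4% and 13.9%, 29.3% together). Under library totals the pluripotent balance turned to 8 higher and 11 lower and the primitive streak balance to 11 higher and 4 lower. Of the gates, the pluripotent one had the highest Cox7b2 level, with 3.99 and 6.03 CPM, against 0 to 1.95 CPM in the other 3 LSD1KO gates (log2 ratio 1.70, adjusted p = 0.000775). LSD1KO cells in no gate, which lack enough markers of any list, had 5.18 and 6.52 CPM. Ndufa4l2 was highest in primitive streak cells, with 13.04 and 8.75 CPM, against 0.230 to 1.30 CPM in the other 3 LSD1KO gates (3.63, adjusted p = 5.27e-05), although LSD1KO replicate 2 had only 33 cells in this gate. Cells with an Ndufa4l2 UMI made up 11.2% and 15.2% of primitive streak cells (median depth 13364 and 28025 UMIs), against 1.78% and 2.99% of pluripotent cells (13254 and 25237 UMIs). Ndufa4l2 stood at 3.41 and 1.22 CPM in free RNA of the LSD1KO libraries, below the primitive streak level in each library. These free RNA levels rest on few UMIs of the gene, out of 2051094 and 3265940 free UMIs. Whether the other 3 gates differed from free RNA, and the part of free RNA in their levels, was not tested.

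Genes that build, feed or regulate the chain were taken from lists by symbol or name. Counts of these lists are for whole EBs unless a gate is named. Among 78 mitochondrial ribosomal protein genes, which translate the subunits encoded in the mitochondrial genome, 22 rose and 6 fell, with a median log2 fold change of 0.13. The total of 28 calls was 12 without LSD1KO replicate 1, 8 without LSD1KO replicate 2 and 18 without WT replicate 1. Mrpl35 had 109 and 110 CPM in LSD1KO libraries, against 60.5 and 65.8 CPM in WT libraries (0.80, adjusted p = 0.00205, edgeR), and Mrpl23 had 131 and 147 CPM in LSD1KO libraries, against 267 and 345 CPM in WT libraries (-1.14, adjusted p = 0.00365). Among 51 assembly factors 8 rose and 7 fell. Ndufaf4, needed to assemble complex I, had 61.7 and 58.4 CPM in LSD1KO libraries, against 37.4 and 41.2 CPM in WT libraries (0.61), and Oxa1l, which inserts subunits into the inner membrane, had 28.4 and 26.8 CPM against 43.9 and 44.6 CPM (-0.68). Among 18 regulators of biogenesis and cytochrome c genes 5 rose and 0 fell, here the somatic cytochrome c gene Cycs (0.55), the mitochondrial transcription factor Tfam (0.41), Ppargc1a, Pprc1 and Cyct. Cyct, the testis form of cytochrome c, had 25.04 and 38.2 CPM in LSD1KO libraries, against 0.466 and 1.52 CPM in WT libraries (4.98, SE 0.53, adjusted p = 0.00192). Ppargc1a, a coactivator of mitochondrial genes, was low throughout, with 0.481 and 0.535 CPM in LSD1KO libraries, against 0.129 and 0.173 CPM in WT libraries (1.74).

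In the TCA cycle, which supplies NADH and succinate, 4 of 18 genes rose and 4 fell. Idh3a, of the NAD-linked isocitrate dehydrogenase, had 70.8 and 80.5 CPM in LSD1KO libraries, against 38.9 and 48.9 CPM in WT libraries (0.79), while the NADP-linked Idh2 had 49.6 and 60.8 CPM against 110 and 110 CPM (-0.99). Glycolysis had 4 genes higher and 8 lower of 22. The glucose transporter Slc2a3 had 254 and 264 CPM in LSD1KO libraries, against 961 and 698 CPM in WT libraries (-1.68, adjusted p = 0.00177), and Slc2a1 had 96.7 and 135 CPM against 421 and 264 CPM (-1.56, adjusted p = 0.00742). Shares of genes called were 35.9% for mitochondrial ribosomal proteins, 29.4% for assembly factors, 27.8% for biogenesis regulators, 44.4% for the TCA cycle and 54.5% for glycolysis, against 44.2% of all genes. In the pluripotent gate, in the same order, they were 23.1%, 22.0%, 31.25%, 27.8% and 40.9%, against 23.5% of all genes. In the neural gate they were 5.13%, 10.0%, 12.5%, 5.56% and 22.7%, against 14.2%. Mitochondrial ribosomal proteins had 13 genes higher and 5 lower in the pluripotent gate, and 2 higher and 2 lower in the neural gate. Under library totals, used for the last counts here, 4839 of all 16953 genes were higher and 2583 lower. With TMM factors 43 genes rose and 25 fell over the 5 lists. With a library left out, the share of all genes called was not counted. Without LSD1KO replicate 2 the counts were 13 and 14, without LSD1KO replicate 1 they were 20 and 12, and under library totals 67 and 17.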

How the data were processed

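Droplet 3′ RNA-seq libraries of day 6 LSD1KO and WT EBs (2 each) were analysed. Per the file headers and labels, the authors ran Cell Ranger 7.1.0 on mm9; Seurat 4.3.0 is named in the submitters' processing notes. The deposited matrices hold raw UMI counts per gene and barcode, not normalized, with every barcode. Duplicate reads are collapsed by UMI, and intervals cover counting error only.

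Cells are barcodes of 500 or more UMIs and 500 or more genes; no doublet caller was run; cells with markers of more than 1 list and no lead of 2 stayed outside the gates, other than the mixed one. Kept cells held 86.3% to 93.6% of each library's UMIs. Counts were summed per library, or per library and gate with at least 30 cells, and tested with edgeR 4.0.16 (quasi-likelihood, TMM, filterByExpr; R 4.3.3) on all genes, tested on simulated data first. CPM in genotype comparisons are TMM-scaled, and CPM across gates are per UMI total. DESeq2 1.42.0, other scalings, no filter, stricter cells (2000 UMIs, 1000 genes), other gates, a replicate block and left-out libraries were alternatives. Single values used exact permutation tests (scipy 1.17.1).

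Genes were picked for naming as Kdm1a, all members of isoform families, up to 3 rises and 3 falls per complex and 4 genes per other list. The order was by log2 fold change among non-overlapping calls. Not all genes picked are named in the text: Cox6a1, Cox8a and some genes of the other lists are left out. The other OXPHOS genes called, and Ndufa8, Ndufv1, Ndufs5 and Pprc1 were named after their values were seen. The share outside ribosomal genes and the comparison of gates within a genotype were added after the data were seen. Members, lists and markers were chosen with earlier results of these data known. Gene positions are from GENCODE M1 (mm9), which held exactly 1 gene for 81 of the 87 members. 1 OXPHOS gene is counted but not reported here by name.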

Additional observations from a re-analysis of the deposited data

How the results depend on the processing

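Calls of single OXPHOS genes kept their direction under every alternative that tested them, which for Cox4i2 in the pluripotent gate was 8 of 11. Called under every alternative were 4 of the 14 genes called in whole EBs, 2 of the 15 in the pluripotent gate and 0 of the 6 in the neural gate. Leaving out a library leaves 1 sample in an arm, which is then assumed to vary like the other genotype. Among the alternatives, the share of all genes called was counted for library totals only, so changes in the counts below cannot be set against it. Over the 4 libraries left out in turn, the count of OXPHOS genes called ran between 6 and 21 in whole EBs, 3 and 22 in the pluripotent gate and 0 and 5 in the neural gate, and that of the other mitochondrial and energy lists between 27 and 72. In the pluripotent gate no filter on low genes gave 24 calls. In the neural gate at least 4 markers gave 3 calls and markers of exactly 1 list gave 12.

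The replicate numbers are not known to pair libraries: deviations of same-numbered libraries correlated at 0.157 across genes, and there are only 2 pairs. With the replicate number as a block, the count of OXPHOS genes called was 17 in whole EBs, 20 in the pluripotent gate and 11 in the neural gate, against 14, 15 and 6 without it.

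The LSD1KO minus WT difference in the summed OXPHOS share of whole EBs stayed positive, between 0.129 and 0.376 percentage points over left-out libraries and 0.107 as a mean over cells, while inside the pluripotent and neural gates the genotypes overlapped. The difference in the share of Cox6b2 in its pair changed sign, to 0.491 percentage points as a mean over cells (-0.491 for Cox6b1), and ran from -2.61 to 1.78 (-1.78 to 2.61 for Cox6b1) over left-out libraries. That of Ndufa4 ran from -0.159 to 0.0105 (-0.0105 to 0.159 for Ndufa4l2). With 2 libraries a genotype, differences inside the spread of the WT libraries were not detectable.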
